A study of Mus musculus with 117 samples.

Results

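The 82 genes described here encode the subunits of the mitochondrial respiratory chain and of the ATP synthase, out of 27179 genes in the count files. They are the protein-coding mouse genes whose symbols begin with Ndufa, Ndufb, Ndufc, Ndufs, Ndufv, Sdh, Uqcr, Cox4, Cox5, Cox6, Cox7, Cox8 or Atp5, without the assembly factors Ndufaf and Sdhaf, and with a mean of at least 1 CPM (counts scaled to a common library size) over all 117 libraries. The prefixes matched 92 genes, of which 5 were not protein-coding and 5 lay below the minimum. The members just inside it were Cox8b with a mean of 3.02 CPM, Cox4i2 with 4.61 CPM and Sdhd with 4.74 CPM, and the genes just outside were Ndufb4c with 0.973 CPM and Cox7b2 with 0.426 CPM. By enzyme, 36 members belong to complex I, 4 to complex II, 7 to complex III, 18 to complex IV (with Ndufa4 and its relative Ndufa4l2 counted here) and 17 to complex V. All 82 passed the filter on low counts in every comparison below.

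Complex I (NADH dehydrogenase) and complex II (succinate dehydrogenase) pass electrons from the citric acid cycle to ubiquinone, complex III hands them to cytochrome c, and complex IV (cytochrome c oxidase) passes them to oxygen. The protons pumped on the way drive complex V, which makes ATP. Most subunits are nuclear genes read on cytosolic ribosomes, whereas a small set of core subunits is encoded in mitochondrial DNA (mtDNA) and read on the ribosomes of the mitochondrion itself. Several complex IV subunits exist as a widely expressed form and an alternative form, among them Cox4i1 and Cox4i2, Cox6a1 and Cox6a2, Cox6b1 and Cox6b2, Cox7a2 and Cox7a1, and Cox8a and Cox8b, with Cox6a2, Cox7a1 and Cox8b best known from striated muscle or heart, and Cox4i2 and Ndufa4l2 known to respond to oxygen in other tissues.

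The libraries came from spinal cord of RiboTag mice on a C57BL/6 background, in which Cre recombination puts a hemagglutinin tag on ribosomal protein Rpl22, so that messenger RNA on tagged ribosomes can be pulled down from the cells where Cre was active. The RiboTag libraries hold that pulled-down RNA, and the Flow libraries hold the RNA left in the flow-through of the same tissue, from astrocytes and all other local cells. The injury was a crush of the cord at T10, and blocks reaching 1 mm to each side of the lesion centre were taken. Sequencing followed poly-A selection.

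In the Aldh1l1-CreERT2-RiboTag line, tamoxifen given to young adults restricts the tag to astrocytes that expressed Aldh1l1 before the injury. Female mice of this line were sampled uninjured (n = 4) and at 2 days (n = 5), 5, 14, 28, 42 and 70 days (n = 4 each) after injury, with RiboTag and Flow libraries of each mouse, and males at 5 and 14 days (n = 4 each). One 5 day Flow library in the female group is labelled male although its title is not, and it was kept with its title. In the 73.12 GFAP Cre-RiboTag line (called mGfap), Cre is constitutive and follows a Gfap promoter, so the tag also marks other cells that have used that promoter. Its RiboTag libraries came from uninjured mice at postnatal day 0 (P0, n = 4), P3 (n = 3), P7 (n = 3), P14 (n = 5), P21 (n = 4), P35 (n = 4) and P63 (n = 5, 3 males and 2 females), and from 5 females at 14 days after injury, with Flow libraries at P63 and 14 days. Each replicate is a separate mouse, and there were 28 groups.

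Library totals ran from 67253656 to 128400518 counts over 70 RiboTag libraries and from 40710428 to 136008399 over 47 Flow libraries, and no pair of libraries held identical counts. The 12 astrocyte markers, among them Aldh1l1 and Aqp4, summed to between 44642 and 49271 CPM in uninjured Aldh1l1 RiboTag libraries and to between 2568 and 3065 CPM in their Flow libraries, and the 10 neuron markers to between 437 and 525 CPM against 10749 to 12276 CPM. A sum of 7 skeletal muscle genes, chosen after the values were seen, stood high in single libraries, often replicate 1. It was 33.0 CPM in the uninjured Aldh1l1 RiboTag library of replicate 1 against at most 9.09 CPM in the other RiboTag libraries of that group. In the 42 day RiboTag library of replicate 1 it was 79.6 CPM against at most 17.2 CPM. It was 140 CPM in the mGfap 14 day RiboTag library of replicate 1 against at most 6.76 CPM, and 128 CPM in the P35 library of replicate 1 against at most 3.72 CPM. It was also 65.9 CPM in P0 replicate 4 against at most 27.2 CPM, 24.9 CPM in the male 14 day RiboTag library of replicate 4 against at most 9.40 CPM, 231 CPM in its Flow library against at most 39.9 CPM, and 2391 CPM in the mGfap 14 day Flow library of replicate 1 against at most 72.1 CPM. Results for Cox6a2, Cox7a1 and Cox8b are given below with these libraries in view.

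Subunit messages were among the most abundant in uninjured astrocytes. Per length, in CPM per kilobase of exon (FPKM), the median member stood at 156 FPKM in the uninjured Aldh1l1 RiboTag libraries, against 2.53 FPKM for all genes tested, and at the percentile 98.2 of 17560 genes. In the matching Flow libraries it was 165 FPKM against 2.87 FPKM. The complex medians in astrocytes were 127 FPKM for complex I, 204 FPKM for complex II, 168 FPKM for complex III, 151 FPKM for complex IV and 209 FPKM for complex V.

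The highest members per length were 2 nuclear-encoded complex IV subunits, with Cox8a at 817 ± 59.2 FPKM and Cox4i1 at 815 ± 113 FPKM (SD, n = 4), and Atp5b, the catalytic beta subunit of ATP synthase, at 789 ± 46.3 FPKM. These 3 levels did not differ beyond their spread. Uqcrh, the hinge protein of complex III, stood at 601 ± 78.0 FPKM, its small partner Uqcr10 at 430 ± 60.1 FPKM and the accessory complex I subunit Ndufb10 at 379 ± 42.0 FPKM. In complex II, the membrane anchor Sdhc was at 303.9 ± 27.5 FPKM, the flavoprotein Sdha at 233 ± 15.7 FPKM, the iron-sulfur protein Sdhb at 175 ± 17.0 FPKM and the other anchor Sdhd at 4.64 ± 0.252 FPKM. The 4 proteins are present in equal numbers in the enzyme, so the level of Sdhd stood far below that of its partners in this count table. The alternative forms stood below the median of complex IV. Per length, Cox7a1, at 61.0 ± 6.97 FPKM, was nevertheless above its widely expressed partner Cox7a2, at 16.1 ± 1.63 FPKM over a longer annotated exon length of 1458 bases against 366. Before division by length the 2 genes stood level, at means of 25.6 and 26.9 CPM in the fit of both fractions. Their order therefore rests on the annotated lengths. The other alternative forms were Cox8b at 21.2 ± 7.76 FPKM, Cox6b2 at 20.7 ± 2.67 FPKM, Cox4i2 at 2.82 FPKM, Ndufa4l2 at 0.827 FPKM and Cox6a2 at 0.565 FPKM.

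Many members are short and have copies elsewhere in the genome. Their median exon length was 922 bases against 2568 bases over all named genes, and 44 members had at most 1000 bases. At 98% identity over at least 50 bases, 58 members had no copied exon sequence, 18 had at least 20% of their exon bases copied and 12 at least 50%, for which the authors' counting may have split or dropped reads. The most copied of those with values named below are Ndufs5 (99% of its bases) and Ndufab1 (29.2%), whose values are uncertain for this reason. Members with high shares that are not named below include Atp5g2 (95.4%), Cox7a2l (92.1%) and Atp5g1 (68.4%). Sdhc, Sdhd, Sdha, Sdhb and the alternative isoform genes had none.

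Promoter sequences are shown for members with and without the words of known regulators of respiratory genes. RefSeq promoters of build GRCm38.p6 (250 bases before to 50 after the start) were matched for 67 of 82 members and searched on both strands for letters bound by factors known to drive nuclear respiratory genes. CGCATGC, the core of the NRF1 site, was in 14.9% of members against 4.01% of all genes. CCGGAAG, an ETS site of the kind GABPA binds, was in 23.9% against 9.93%, and AAGATGG, the core of a YY1 site, in 16.4% against 7.28%. Any of the 3 was in 31 members (46.3%) against 19.3% of all 27025 genes, whereas the GC box GGGCGG was in 41.8% against 38.2% and TATAAA in 10.4% against 15.7%. The 3 alternative isoform genes with a promoter in the table, Cox6b2, Cox7a1 and Cox8b, held none of the first 3 words. Examples are shown with these words in capitals. Atp5j (a stalk subunit of ATP synthase, minus strand, chr16:84834927-84835226), Sdhb (plus strand, chr4:140961021-140961320) and Cox8a (minus strand, chr19:7217567-7217866) hold at least 1 of the first 3, Cox7a1 (plus strand, chr7:30183921-30184220) holds no searched word, and Cox8b (minus strand, chr7:140900397-140900696) holds TATAAA alone. In Atp5j the CGCATGC core reads on both strands at overlapping positions. A word match is a description of these windows and not evidence of binding.
Atp5j: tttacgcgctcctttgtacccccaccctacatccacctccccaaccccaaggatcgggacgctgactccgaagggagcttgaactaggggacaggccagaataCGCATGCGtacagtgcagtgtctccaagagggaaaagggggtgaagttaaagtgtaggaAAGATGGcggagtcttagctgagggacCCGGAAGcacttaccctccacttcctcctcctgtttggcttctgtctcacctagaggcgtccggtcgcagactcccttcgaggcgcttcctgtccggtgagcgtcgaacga
Sdhb: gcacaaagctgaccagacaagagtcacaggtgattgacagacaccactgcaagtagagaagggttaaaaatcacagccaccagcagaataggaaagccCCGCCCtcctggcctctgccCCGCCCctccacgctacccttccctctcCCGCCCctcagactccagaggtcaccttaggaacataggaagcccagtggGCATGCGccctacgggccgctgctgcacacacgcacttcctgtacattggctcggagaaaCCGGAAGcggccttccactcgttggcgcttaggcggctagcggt
Cox8a: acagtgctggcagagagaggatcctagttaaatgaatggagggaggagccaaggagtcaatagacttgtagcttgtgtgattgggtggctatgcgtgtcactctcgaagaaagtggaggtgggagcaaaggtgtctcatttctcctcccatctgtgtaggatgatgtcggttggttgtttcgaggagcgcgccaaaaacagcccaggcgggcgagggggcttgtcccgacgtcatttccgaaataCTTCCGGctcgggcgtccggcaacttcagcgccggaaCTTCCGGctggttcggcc
Cox7a1: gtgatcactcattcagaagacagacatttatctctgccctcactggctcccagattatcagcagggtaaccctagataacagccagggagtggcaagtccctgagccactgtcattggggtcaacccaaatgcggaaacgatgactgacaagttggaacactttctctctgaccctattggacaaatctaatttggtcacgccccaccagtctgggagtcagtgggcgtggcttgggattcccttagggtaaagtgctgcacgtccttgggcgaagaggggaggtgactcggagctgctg
Cox8b: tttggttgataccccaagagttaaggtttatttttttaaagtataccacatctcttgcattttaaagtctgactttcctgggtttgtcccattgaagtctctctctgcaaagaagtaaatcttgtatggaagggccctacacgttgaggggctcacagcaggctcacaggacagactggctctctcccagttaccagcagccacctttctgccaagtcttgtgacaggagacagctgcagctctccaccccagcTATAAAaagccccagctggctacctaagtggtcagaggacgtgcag

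After injury, the subunit genes of astrocytes were lower as a group from 2 to 42 days, and at 70 days the group as a whole was no longer lower. By edgeR's quasi-likelihood test at a false discovery rate under 0.01, 58 of 82 members fell and 1 rose at 2 days, where 29.9% of 18205 genes fell and 30.2% rose. At 5 days 44 fell and 5 rose (28.1% and 28.7% of all genes), at 14 days 60 fell and 2 rose (22.8% and 24.5%), at 28 days 36 fell and 2 rose (19.1% and 22.8%), and at 42 days 35 fell and 3 rose (20.0% and 23.3%). At 70 days 16 fell and 10 rose (21.5% and 23.9%). The members' median log2 fold change was -0.50, -0.38, -0.57, -0.38, -0.35 and 0.05 at the 6 times, against all-gene medians between -0.04 and 0.05. The 6 comparisons share the same 4 uninjured libraries.

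The mean of the members' log2 CPM per library shows the same course. It was 6.87 ± 0.16 (SD, n = 4) in uninjured astrocytes with a range of 6.68 to 7.04, 6.33 ± 0.13 (n = 5) at 2 days with a range of 6.19 to 6.52, 6.41 ± 0.12 at 14 days and 6.92 ± 0.24 at 70 days with a range of 6.71 to 7.22. The 2 day and uninjured libraries did not overlap, and the 70 day libraries overlapped the uninjured range. CPM are shares of the RNA pulled down from a whole tissue block. A change in the mix of cells and a change of RNA within cells cannot be told apart in them. With library totals in place of the TMM scaling, which moved the all-gene median to between 0.08 and 0.19, 41, 39, 55, 32, 30 and 15 members were lower at the 6 times and 3, 6, 3, 2, 3 and 10 higher.

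**Figure D1:**
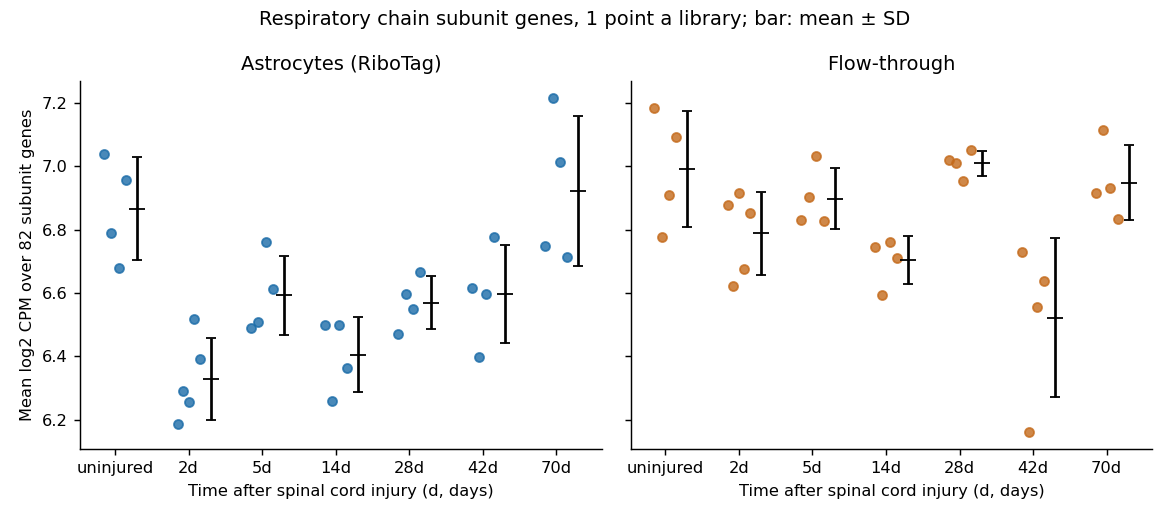
Mean log2 CPM over the 82 subunit genes (y axis) in each Aldh1l1 library by time after injury (x axis, days), astrocytes on the left and flow-through on the right, with points for libraries and bars for mean ± SD. Astrocyte libraries drop from 6.68 to 7.04 uninjured to 6.19 to 6.52 at 2 days and overlap the uninjured range at 70 days, whereas the flow-through libraries of these groups overlap.

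Markers of other cells moved with the time after injury. The 10 microglia and macrophage markers, Cx3cr1 and Csf1r among them, summed to between 43.3 and 89.6 CPM in uninjured astrocyte libraries, 1425 to 2454 CPM at 2 days, 13149 to 16532 CPM at 5 days, 8900 to 14706 CPM at 14 days and 1075 to 3547 CPM at 70 days, and 9 or 10 of the 10 were higher at each time. The 12 astrocyte markers summed to between 22297 and 31084 CPM at 2 days, 39466 and 44309 CPM at 14 days and 42566 and 49860 CPM at 70 days. The part of these shifts in the members' values was not tested. At 28 and 42 days the astrocyte marker sums, at 45026 to 50185 CPM and 44347 to 51647 CPM, overlapped those of uninjured mice. Rises and falls of single markers can cancel in such a sum. An overlap of sums therefore does not show that each astrocyte marker, or the astrocyte content, was unchanged.

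In complex I, where the matrix arm takes electrons from NADH and the membrane arm pumps protons, 27, 23, 29, 17, 18 and 6 of 36 members fell at the 6 times in order. Ndufs1, the largest core subunit, which carries iron-sulfur clusters, was among the members that fell most. Its CPM values were 159, 148, 162 and 166 in uninjured astrocytes, 100, 102, 106, 109 and 94.5 at 2 days, 75.3, 69.2, 75.6 and 67.4 at 14 days and 84.0, 114, 78.1 and 87.4 at 70 days. No injured library reached the uninjured range at these times. The log2 fold change was -0.91 (SE 0.08, edgeR adjusted p = 1.47e-10) at 5 days, -1.14 (SE 0.08, adjusted p = 2.46e-12) at 14 days and -0.81 (adjusted p = 4.37e-09) at 70 days.

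The accessory subunit Ndufb10 took another course. It went from 278, 237, 228 and 284 CPM uninjured to 101, 116, 114, 138 and 119 CPM at 2 days (log2 fold change -1.13), to 172, 134, 170 and 150 CPM at 14 days (-0.71) and to 268.8, 412.7, 313 and 242 CPM at 70 days. The 2 day and 14 day libraries lay below all uninjured ones, and the 70 day libraries overlapped them. Ndufb7, another accessory subunit of the membrane arm, did not pass at 2, 5 or 14 days and stood at 192.5, 313, 252 and 178 CPM at 70 days against 184, 150, 137 and 173 CPM uninjured (0.54, edgeR adjusted p = 0.00292), with overlap between the groups. Ndufa12, which joins the matrix arm late in assembly, went from 75.5, 69.1, 70.2 and 90.3 CPM to 40.2, 45.5, 45.8 and 43.8 CPM at 42 days (-0.80, adjusted p = 8.56e-09), with 21.4% of its exon bases copied elsewhere.

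Complex II, the citric acid cycle enzyme of the chain, changed member by member. Sdha, which holds the flavin where succinate is oxidized, stood at 655, 610, 689 and 713 CPM in uninjured astrocytes, at 399, 401, 390, 407 and 387 CPM at 2 days, at 351, 320, 320 and 343 CPM at 5 days and at 499, 506, 455 and 479 CPM at 70 days. Every injured library at these times lay below every uninjured one. Its log2 fold change was -0.75 at 2 days, -0.998 (SE 0.06, edgeR adjusted p = 4.95e-14) at 5 days, -0.92 (SE 0.06, adjusted p = 4.82e-13) at 14 days, -0.66 at 28 days, -0.36 at 42 days and -0.46 (adjusted p = 4.59e-07) at 70 days. Sdhc, a membrane anchor, went from 429, 373, 354 and 418 CPM to 218, 219, 214, 262 and 231 CPM at 2 days (-0.78) and was at 335, 384, 389 and 331 CPM at 70 days, in the uninjured range or just below it. Sdhb, the iron-sulfur subunit, moved least. It was at 188, 177, 176 and 215 CPM uninjured and at 156, 150, 165 and 158 CPM at 14 days (-0.27, edgeR adjusted p = 0.00195), it did not pass at 2 days, and its call at 14 days was lost when only the 2 groups were fitted. Sdhd, at 6.18, 6.30, 5.68 and 5.69 CPM uninjured, did not pass at 2, 5 or 14 days and was at 4.19, 3.15, 4.23 and 4.27 CPM at 70 days (-0.59, SE 0.13, adjusted p = 0.000331), below all uninjured libraries.

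In complex III 5, 4, 5, 3, 3 and 3 of 7 members fell. Uqcrfs1, the Rieske iron-sulfur protein, went from 227, 190, 219 and 247 CPM uninjured to 117, 106, 118 and 118 CPM at 14 days and 115, 119, 125 and 135 CPM at 28 days (log2 fold change -0.84, SE 0.13, edgeR adjusted p = 2.76e-06), and the groups did not overlap. Uqcrh was at 373, 299, 285 and 355 CPM uninjured, at 170, 186, 183, 238 and 218 CPM at 2 days (-0.72) and at 342, 706, 390 and 283 CPM at 70 days. The 2 day libraries lay below the uninjured ones and the 70 day libraries spread around them, with 1 library far above the rest. Uqcr10 fell at 2 days (-0.87), from 289, 227, 216 and 271 CPM to 119, 134, 130, 157 and 148 CPM, and did not pass at 14 days.

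In complex IV 12, 5, 10, 5, 4 and 0 of 18 members fell, and all genes that rose at 2, 5, 14 and 28 days were complex IV isoform genes, described below. Cox8a, a small nuclear-encoded subunit, stood at 480, 423, 412.8 and 465 CPM uninjured, at 184, 199, 200, 243 and 220 CPM at 2 days (log2 fold change -1.09), at 303.7, 254, 302.7 and 286 CPM at 14 days (-0.64) and at 351, 458, 473 and 369 CPM at 70 days. Its injured libraries lay below the uninjured ones at 2 and 14 days and overlapped them at 70 days. Cox4i1, the main form of the largest nuclear subunit, was at 724, 590, 522 and 655 CPM uninjured, at 348, 371, 358, 478 and 432 CPM at 2 days (-0.65) and at 458, 402, 462 and 424 CPM at 14 days (-0.51, edgeR adjusted p = 0.00214), again without overlap. It did not pass at 5 days (-0.30). Ndufa4, which is now placed in complex IV, had log2 fold changes of -0.67, -0.68 and -0.86 at 2, 5 and 14 days.

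In complex V 12, 9, 13, 9, 7 and 5 of 17 members fell. Atp5b stood at 1416, 1415, 1505 and 1598 CPM in uninjured astrocytes, at 1059, 1148, 1080, 1038 and 1033 CPM at 2 days, at 723, 752, 799 and 764 CPM at 14 days and at 846, 835, 825 and 908 CPM at 70 days. All injured libraries at these times lay below all uninjured ones. Its log2 fold change was -0.47 at 2 days, -0.60 (SE 0.07, edgeR adjusted p = 8.48e-09) at 5 days, -0.97 (SE 0.07, adjusted p = 1.3e-12) at 14 days and -0.80 (adjusted p = 1.34e-10) at 70 days. Atp5a1, the alpha subunit that alternates with beta in the catalytic ring, went from 1184, 1130, 1224 and 1285 CPM to 776, 795, 778 and 847 CPM at 70 days (-0.59, adjusted p = 2.8e-09). Atp5d, the delta subunit of the central stalk, was at 232, 235, 249 and 255 CPM uninjured and at 131, 126, 139 and 132 CPM at 42 days (-0.88, SE 0.10, adjusted p = 2.48e-08).

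**Figure D2:**
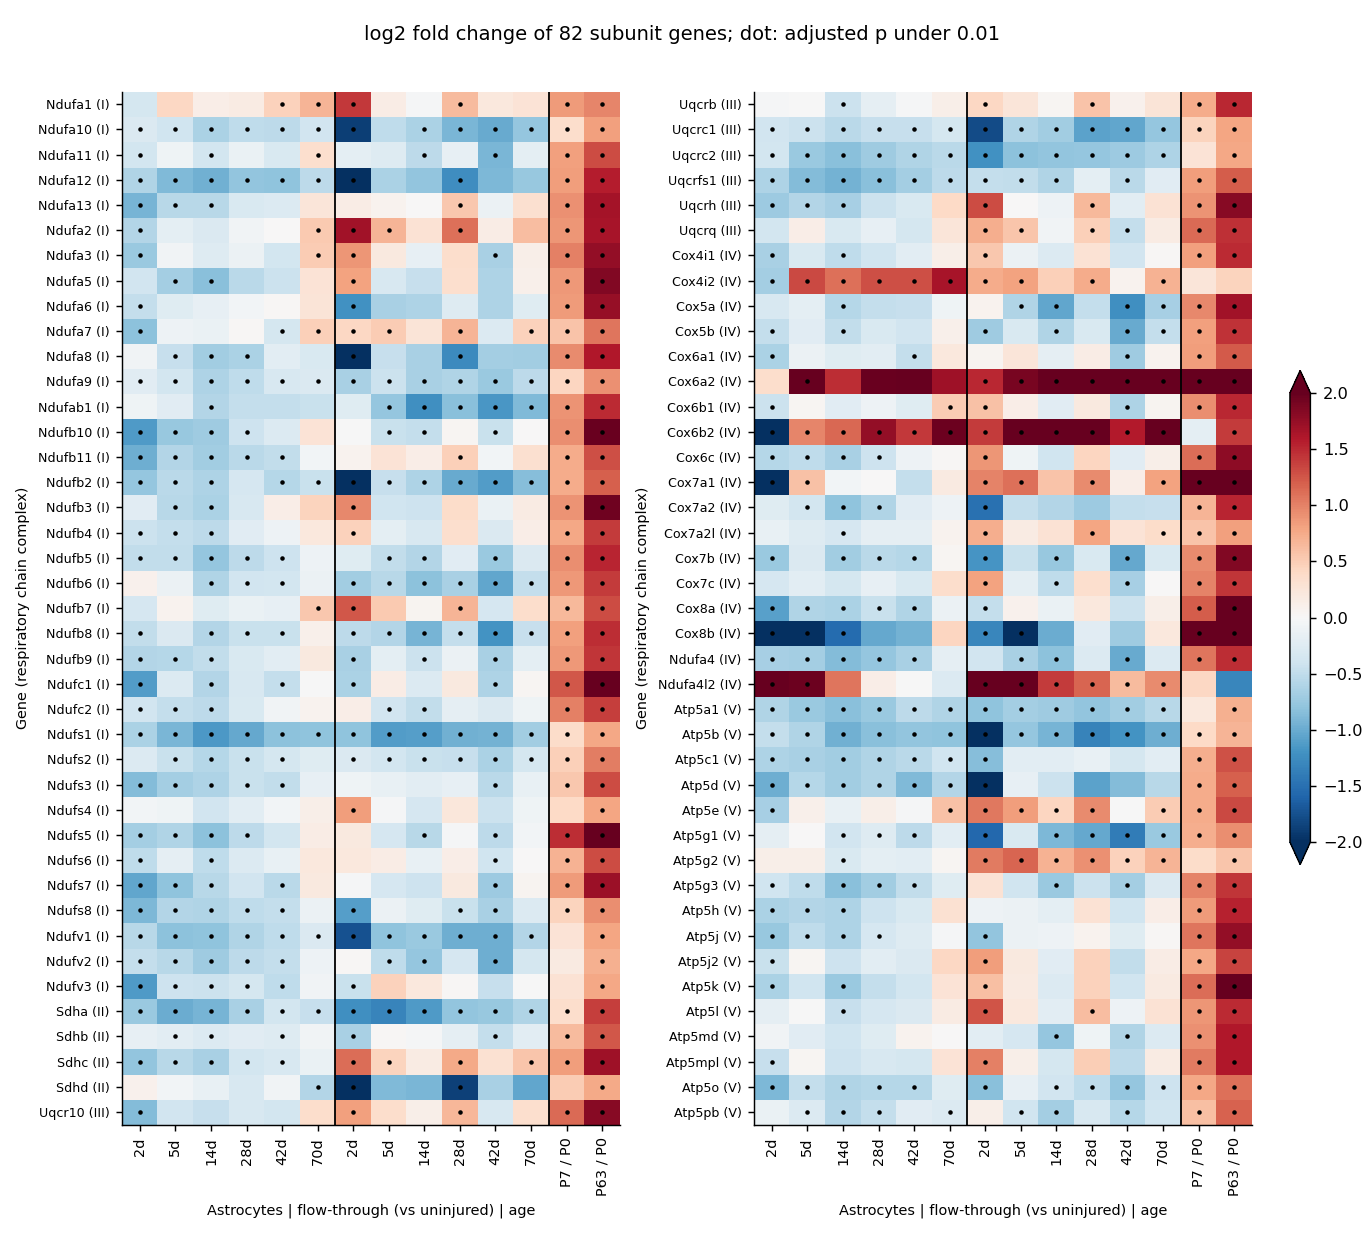
Log2 fold change (color, cut at -2 and 2) of each of the 82 subunit genes, with its complex in parentheses, in astrocytes and in flow-through at each time against uninjured and in mGfap-line cells at P7 and P63 against P0, with a dot where the edgeR adjusted p is under 0.01. Blue columns of falls in astrocytes from 2 to 42 days stand beside mixed colors in flow-through, and nearly all genes are red with age.

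At 70 days the members divided by gene length. Of the 38 members with over 1000 exon bases, 15 fell and 2 rose, and of the 44 shorter ones 1 fell and 8 rose. At 14 days the same counts were 33 and 0 of the longer members and 27 and 2 of the shorter, and at 28 and 42 days 25 of the longer members fell at each time against 11 and 10 of the shorter. Of 1235 short genes outside the list, 477 rose and 37 fell at 70 days, and 259 rose and 106 fell at 14 days. At 28 days 295 of them rose and 58 fell, and at 42 days 294 and 81. Their median log2 fold change was 0.65 at 70 days and 0.11, 0.33, 0.15, 0.27 and 0.28 at the earlier times. Length thus moved with these values, and its part was not tested. Besides Cox4i2 and Cox6b2, the members that rose at 70 days were Ndufa1, Ndufb7, Ndufa2, Ndufa3, Ndufa7, Ndufa11, Cox6b1 and Atp5e, named after their values were seen. Ndufa1, an accessory complex I subunit, had the largest change of these 8, from 76.8, 61.5, 52.5 and 63.1 CPM to 90.1, 119, 115 and 84.0 CPM (0.68, edgeR adjusted p = 0.000219), with every 70 day library above every uninjured one.

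The alternative isoform genes of complex IV moved separately from the rest. Without the 13 isoform genes, 49, 40, 54, 33, 32 and 16 of the other 69 members fell and 0, 0, 0, 0, 1 and 7 rose. At 2 days the largest falls and the only rise were all among the isoform genes. Cox8b, the muscle-type form of Cox8, went from 11.9, 6.11, 6.13 and 6.59 CPM to 0.122, 0.662, 0.529, 0.509 and 0.227 CPM (log2 fold change -4.24, SE 0.47, edgeR adjusted p = 8.5e-09). Cox7a1, the muscle-type form of Cox7a, went from 25.1, 22.5, 18.96 and 22.8 CPM to 2.94, 3.56, 4.07, 4.83 and 4.04 CPM (-2.52, SE 0.17, adjusted p = 1.4e-13). Cox6b2, the form of Cox6b best known from testis, went from 14.4, 13.05, 10.48 and 13.2 CPM to 2.03, 2.42, 3.02, 3.46 and 3.51 CPM (-2.15, SE 0.14, adjusted p = 1.35e-13). In none of the 3 did the groups overlap, and the values of the uninjured library with raised muscle genes, listed first, set the highest value of each without making the gap.

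Ndufa4l2, a relative of Ndufa4 that is induced by hypoxia in other cells, went the other way. It rose from 0.949, 0.997, 0.53 and 1.34 CPM to 14.1, 6.38, 6.14, 12.2 and 5.99 CPM at 2 days (log2 fold change 3.24, SE 0.39, edgeR adjusted p = 2.23e-08) and to 3.17, 3.04, 4.26 and 4.38 CPM at 5 days (1.96, SE 0.38, adjusted p = 5.15e-05). At 14 days it was at 2.76, 2.20, 1.49 and 1.54 CPM and did not pass (1.07, adjusted p = 0.0168), although no library overlapped, and at 28, 42 and 70 days it lay within or near the uninjured range.

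From 5 days on, 2 of these genes stood above their uninjured level. Cox6b2 was at 20.3, 24.4, 31.4 and 24.3 CPM at 5 days (log2 fold change 0.98, SE 0.15, edgeR adjusted p = 1.11e-06), at 40.8, 47.5, 45.3 and 39.7 CPM at 28 days (1.76, adjusted p = 5.88e-11) and at 50.0, 43.4, 57.3 and 47.6 CPM at 70 days (1.96, adjusted p = 1.18e-11). It thus lay below all uninjured libraries at 2 days and above all of them at each of these later times. Cox4i2, the oxygen-responsive form of Cox4, was at 2.94, 2.06, 1.71 and 2.58 CPM uninjured, at 4.67, 4.97, 6.64 and 6.88 CPM at 5 days (1.32, SE 0.23, adjusted p = 1.1e-05) and at 5.68, 10.6, 6.26 and 6.63 CPM at 70 days (1.65, adjusted p = 7.14e-07), again without overlap. At 2 days it stood at 1.28, 1.60, 1.03, 2.14 and 1.21 CPM with overlap (-0.68, adjusted p = 0.00755), a call lost with library totals.

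Cox7a1 and Cox8b returned at different times. Cox7a1 was at 28.9, 29.6, 40.8 and 35.4 CPM at 5 days, above all uninjured libraries (log2 fold change 0.59, SE 0.17, edgeR adjusted p = 0.00341), a call lost without uninjured replicate 3 or 5 day replicate 3, and at 24.2, 16.9, 24.3 and 20.4 CPM at 14 days, in or just below their range (-0.06). Cox8b was still at 1.21, 1.58, 1.34 and 1.73 CPM at 5 days (-2.39, SE 0.46, adjusted p = 5.24e-05) and at 1.71, 2.27, 3.94 and 2.68 CPM at 14 days (-1.53, SE 0.44, adjusted p = 0.00441), below all uninjured libraries. Without uninjured replicate 1 its 14 day value was -1.24 with an adjusted p of 0.0241 by the same edgeR test. At 28 days it did not pass (-1.03, adjusted p = 0.0509), and at 70 days it was at 5.26, 19.5, 11.46 and 5.18 CPM, on both sides of the uninjured values. The 2 high libraries, replicates 2 and 3, also had the higher muscle sums at 70 days, 18.7 and 17.2 CPM against 7.11 and 6.22 CPM, and the part of muscle RNA was not tested.

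Cox6a2, the muscle-type form of Cox6a, was near the limit of detection. It stood at 1.23, 0.190, 0 and 0.0693 CPM uninjured, the highest in the library with raised muscle genes, and at 1.69, 2.59, 2.19 and 1.40 CPM at 5 days (log2 fold change 2.39, SE 0.73, edgeR adjusted p = 0.00524). The groups did not overlap, and the call was lost when only these groups were fitted and without uninjured replicate 2 or 4 or 5 day replicate 2 or 3. At 28 days its libraries, at 1.35, 1.67, 1.38 and 1.47 CPM, also lay above the uninjured ones without passing.

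**Figure D3:**
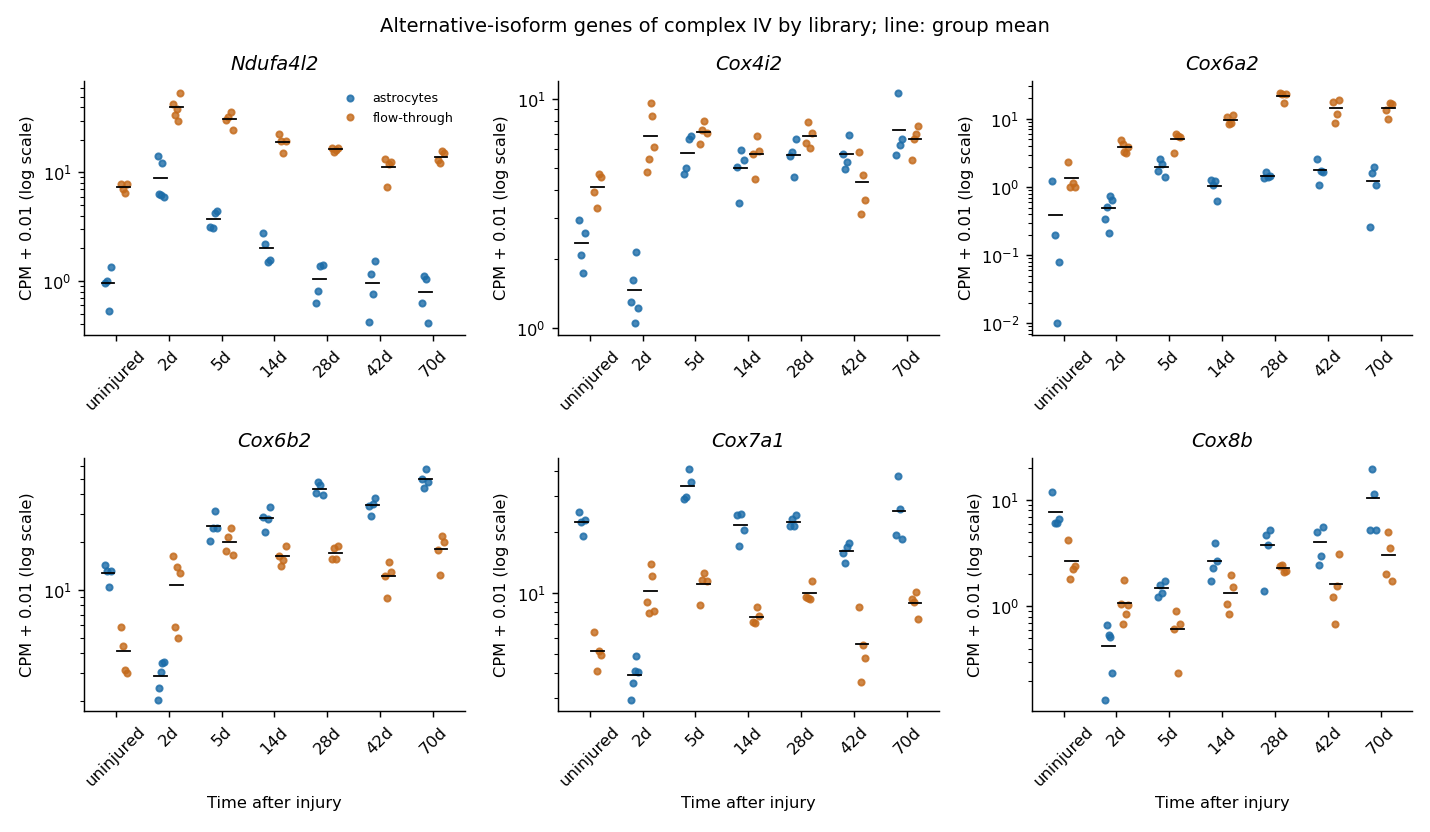
CPM plus 0.01 on a log axis (y) of 6 alternative-isoform genes in each library by time after injury (x), astrocytes in blue and flow-through in orange, with lines for group means. Cox6b2, Cox7a1 and Cox8b dip in astrocytes at 2 days only to return or exceed the uninjured level later, while Ndufa4l2 peaks at 2 days in both fractions.

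The messages of subunits encoded in mitochondrial DNA were also lower in the RiboTag libraries. They are read on the ribosomes of the mitochondrion and not on the cytosolic ones that the tag marks. The pull-down therefore does not select them, and their values cannot be read as a change in astrocytes. Of 13 such genes, 9, 12, 11, 10, 9 and 12 fell at the 6 times and 0 rose, with median log2 fold changes of -1.18, -2.84, -1.995, -2.001, -1.08 and -2.46. Their median lay below that of the nuclear members at each time. mt-Nd1, a membrane core subunit of complex I, went from 1200 ± 404 CPM (SD, n = 4) to 420 CPM at 2 days and 165 CPM at 5 days. The 13 genes summed to between 2906 and 5430 CPM in uninjured astrocyte libraries, to between 661 and 928 CPM at 5 days and to between 586 and 1038 CPM at 70 days. In the Flow libraries of uninjured mice they summed to between 49340 and 61270 CPM, and the part of untagged RNA in the astrocyte values was not tested.

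**Figure D4:**
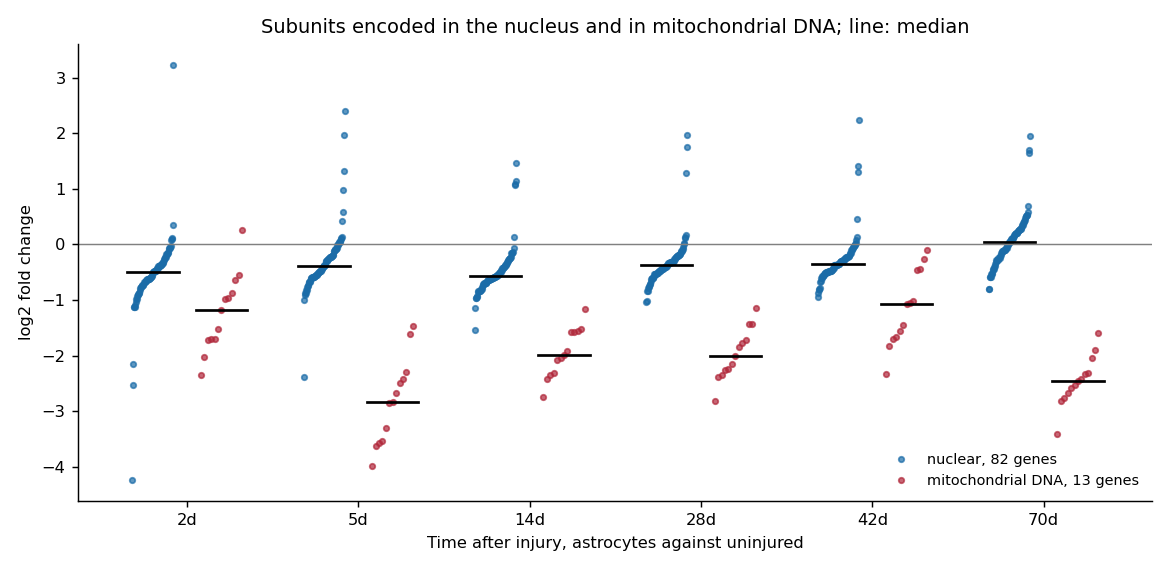
Log2 fold change (y) against uninjured in astrocyte RiboTag libraries at each time (x, d for days) of the 82 nuclear subunit genes in blue and the 13 subunits encoded in mitochondrial DNA, which the pull-down does not select, in red, 1 point a gene in order of its value, with a line at each median. The nuclear medians run from -0.57 to 0.05 and those of mitochondrial DNA from -2.84 to -1.08.

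Other genes of mitochondrial metabolism were taken from lists. Of 13 citric acid cycle enzymes, 8, 12, 13, 13, 10 and 13 fell at the 6 times and 2 rose at 2 days, and citrate synthase (Cs), which opens the cycle, went from 667 CPM to 302 CPM at 14 days (log2 fold change -1.14). Of 13 fatty acid oxidation enzymes, 13, 9, 10, 7, 5 and 7 fell. Cytochrome c1 (Cyc1), a subunit of complex III, and cytochrome c (Cycs), which carries electrons from complex III to complex IV, both fell from 5 days on. The factors that build the complexes were mixed, with 10, 17, 20, 11, 8 and 10 of 44 lower and 12, 4, 0, 2, 2 and 11 higher.

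Genes of the cytosolic ribosome, which are short as well, rose while most subunits that passed fell, and those of the mitochondrial ribosome were mixed. Of 90 cytosolic ribosomal protein genes 88, 84, 53, 65, 59 and 79 rose, and of 78 mitochondrial ribosomal protein genes 41, 17, 3, 8, 3 and 25 rose while 8, 11, 19, 6, 9 and 4 fell. Among glycolytic enzymes and lactate transporters, 9, 11, 15, 15, 13 and 14 of 21 fell. Of 14 regulators of mitochondrial biogenesis, 3, 3, 3, 3, 4 and 5 fell and 3, 4, 2, 0, 1 and 1 rose. Ppargc1a, the coactivator PGC-1 alpha that drives nuclear respiratory genes, went from 64.4 ± 13.7 CPM to 13.8 ± 1.06 CPM at 2 days (log2 fold change -2.22, edgeR adjusted p = 5.86e-15) and was still lower at 70 days (-1.28). Of 12 hypoxia response genes, 2, 2, 2, 3, 4 and 2 rose and 5, 3, 5, 5, 4 and 5 fell.

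In the flow-through, which held RNA of all local cells, the members did not fall together at 2 days. There 30 rose and 33 fell, where 32.6% of 19207 genes rose and 32.9% fell. The members' median log2 fold change was -0.02, near the all-gene median of -0.04. At 5 days 11 rose and 22 fell (27.7% and 21.8% of all genes), at 14 days 5 and 32 (24.6% and 19.5%), at 28 days 20 and 20 (26.4% and 22.6%), at 42 days 4 and 41 (25.3% and 19.2%) and at 70 days 10 and 18 (21.8% and 15.7%). The medians at 5 to 70 days were -0.19, -0.40, 0.00, -0.55 and -0.03, and the 6 comparisons share the uninjured Flow libraries. Without uninjured Flow replicate 1, 14 fell at 5 days, and without uninjured Flow replicate 2, 13 rose and 21 fell at 28 days. With library totals 22 rose and 37 fell at 2 days and 13 rose and 28 fell at 28 days.

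At 2 days the direction of the members followed gene length. Of the 44 members up to 1000 bases 24 rose and 11 fell, with a median of 0.50. Of the 38 longer ones 6 rose and 22 fell, with a median of -0.50. Among 1453 short genes outside the list 566 rose and 205 fell, with a median of 0.75. The neuron markers summed to between 531 and 1222 CPM at 2 days against 10749 to 12276 CPM uninjured, with 10 of 10 lower at every time. The part of length and of the neurons in the members' values was not tested.

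The complex II genes went opposite ways in the flow-through at 2 days. Sdhd fell from 4.74, 5.43, 5.40 and 5.02 CPM to 1.35, 0, 0.333, 0 and 0.615 CPM (log2 fold change -3.43, SE 0.59, edgeR adjusted p = 7.38e-06) and Sdha from 479, 457, 486 and 503 CPM to 196, 209, 196, 242 and 187 CPM (-1.22, adjusted p = 3.64e-13). Sdhc rose from 171, 127, 136 and 148 CPM to 266, 329, 303.1, 376 and 298 CPM (1.11, SE 0.12, adjusted p = 3.59e-09). None of the 3 overlapped between groups, although all belong to 1 enzyme.

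Atp5b fell from 1276, 1291, 1436 and 1510 CPM to 404, 119, 288, 149 and 303.7 CPM (log2 fold change -2.45, SE 0.21, edgeR adjusted p = 1.77e-11), and Ndufa12 fell by the same log2 amount. Ndufa2, a small accessory complex I subunit, rose from 198, 135, 149 and 181 CPM to 366, 786, 427, 671 and 405 CPM (1.68, SE 0.20, adjusted p = 2.35e-08). Replicates 2 and 4 at 2 days were the lowest for Sdhd and Atp5b and the highest for Ndufa2, so these members varied together among the 5 mice. Ndufa4l2 rose from 7.89, 6.99, 6.45 and 7.75 CPM to 42.8, 34.1, 38.1, 29.7 and 54.3 CPM (2.45, SE 0.18, adjusted p = 8.27e-13), and its level in uninjured flow-through was above that in astrocytes.

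Later, Cox6a2 and Cox6b2 stood out in the flow-through. Cox6a2 was at 2.34, 0.980, 1.12 and 0.994 CPM uninjured and at 24.4, 23.3, 16.9 and 23.6 CPM at 28 days (log2 fold change 4.02, SE 0.30, edgeR adjusted p = 4.32e-12), and its changes were 3.40 at 42 and at 70 days. The sum of 7 muscle genes in the Flow libraries was 118, 34.7, 39.2 and 40.5 CPM uninjured, 73.4, 75.5, 71.1 and 86.5 CPM at 28 days, 127, 40.7, 33.9 and 83.1 CPM at 42 days and 45.4, 122.6, 120.2 and 32.4 CPM at 70 days. It was thus higher at 28 days than in 3 uninjured libraries and lower than in uninjured replicate 1, where Cox6a2 was at 2.34 CPM. Cox6b2 was at 5.84, 4.43, 3.13 and 2.99 CPM uninjured and at 17.6, 21.6, 24.4 and 16.5 CPM at 5 days (2.29). Neither overlapped with uninjured libraries. At 42 days, when the most members fell, Cox5a, which sits on the matrix face of complex IV, went from 420, 298, 287 and 371 CPM to 151, 108, 156 and 172 CPM (-1.23, adjusted p = 9.98e-07), and Ndufb8, an accessory complex I subunit, from 434, 322, 365 and 417 CPM to 201, 118, 171 and 179 CPM (-1.20, adjusted p = 7.04e-08).

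The difference between the astrocyte change and the flow-through change was tested directly, over 19640 genes. At 2 days it was called for 53 members, 18 with the astrocyte change higher and 35 with it lower (30.1% and 20.6% of all genes), with a median difference of -0.34 on the log2 scale against 0.30 over all genes. At 5 days 2 were higher and 5 lower (17.7% and 10.9%), at 14 days 1 and 4 (14.5% and 10.0%), at 28 days 3 and 15 (15.5% and 12.9%), at 42 days 13 and 2 (12.6% and 10.7%) and at 70 days 1 and 2 (8.80% and 8.90%). With the mouse as a block, since the 2 fractions of a mouse share its tissue, the counts were 20 and 38 at 2 days, 7 and 10 at 5 days, 4 and 6 at 14 days, 3 and 33 at 28 days, 20 and 3 at 42 days and 8 and 2 at 70 days. With library totals, which moved all genes up, the 2 day counts were 26 and 28 and the median difference was -0.07 against 0.57 over all genes. The members' median lay 0.64 below that of all genes with library totals and 0.63 below with the TMM scaling. With the TMM scaling, short genes outside the list had median differences of -0.25, -0.18, -0.18, -0.51, -0.07 and 0.01 at the 6 times. Those of the members were -0.34, 0.01, -0.06, -0.33, 0.26 and 0.20, and the part of length was not tested.

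The largest 2 day differences were in the isoform genes and complex II. The astrocyte change was lower by a log2 of -3.36 ± 0.32 (SE) for Cox6b2 (edgeR adjusted p = 2.96e-13), by -3.33 ± 0.27 for Cox7a1 (adjusted p = 1.25e-15) and by -1.71 ± 0.14 for Sdhc. It was higher by 3.67 ± 0.55 for Sdhd (adjusted p = 9.06e-08), by 2.16 ± 0.22 for Atp5b (adjusted p = 3.48e-12) and by 2.13 ± 0.40 for Ndufa8, an accessory complex I subunit. Sdhc kept a lower astrocyte change at the other times, at -0.79, -0.68, -1.07, -0.54 and -0.63, and the 6 tests share the uninjured mice. At 42 days the difference was 1.31 for Cox4i2 (adjusted p = 0.000897) and 0.85 for Cox5a. The 5 day count of lower members was 3 without 5 day mouse 2, the 42 day count of higher members was 8 without uninjured mouse 4 and 7 without 42 day mouse 4, and the 70 day count of lower members was 1 without any 1 of uninjured mice 2, 3 and 4 and 70 day mice 1 to 4.

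Compared directly within uninjured mice, astrocyte RNA held more of 31 members than the flow-through and less of 6 (30.7% and 31.3% of 17595 genes), with a median log2 ratio of 0.24 against -0.08 over all genes. The direction of that count depended on the scaling, since with library totals 6 members were higher and 33 lower, with a member median of -0.34 against -0.66 over all genes. With the mouse as a block 42 were higher and 9 lower. After injury the counts of higher and lower members were 21 and 37 at 2 days (27.7% and 28.1%), 24 and 19 at 5 days (32.4% and 32.0%), 23 and 12 at 14 days (30.7% and 31.7%), 28 and 43 at 28 days (32.0% and 32.4%), 34 and 3 at 42 days (24.1% and 22.7%) and 26 and 3 at 70 days (22.6% and 23.1%). With library totals they became 13 and 43 at 5 days, 13 and 44 at 14 days, 18 and 49 at 28 days, 17 and 4 at 42 days and 5 and 7 at 70 days, and with the mouse as a block 28 and 31 at 5 days and 49 and 3 at 42 days. Short genes outside the list had median log2 ratios of -0.33 uninjured and -0.88, -0.55, -0.51, -0.82, -0.25 and -0.20 after injury. The members' medians after injury were -0.39, -0.05, -0.02, -0.25, 0.41 and 0.35. Of 987 such short genes 80 were higher and 479 lower at 2 days, and of 1148 at 28 days 150 and 571. The part of length was not tested.

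In uninjured mice all 4 complex II genes were higher in astrocytes. Sdhc stood at 498, 428, 402 and 473 CPM against 150, 112, 122 and 133 CPM (log2 ratio 1.80, SE 0.11, edgeR adjusted p = 2.42e-08), Sdha at 759, 699, 782 and 807 CPM against 421, 403.3, 435 and 452 CPM (0.83, SE 0.07, adjusted p = 9.83e-07), and neither overlapped. Sdhb was at 218, 203, 199 and 244 CPM against 164, 142, 158 and 173 CPM (0.44, adjusted p = 0.000791) and Sdhd at 7.17, 7.23, 6.45 and 6.45 CPM against 4.17, 4.79, 4.84 and 4.51 CPM (0.58, adjusted p = 0.00208), and the log2 ratios of both changed sign with library totals (-0.1406 and -0.005293).

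Among the isoform genes, Cox7a1 was at 29.2, 25.7, 21.5 and 25.8 CPM in uninjured astrocytes against 5.61, 3.59, 4.58 and 4.42 CPM in flow-through (log2 ratio 2.49, SE 0.15, edgeR adjusted p = 3.49e-08). Cox6b2 was at 16.7, 14.95, 11.9 and 14.9 CPM against 5.14, 3.91, 2.80 and 2.69 CPM (2.01, adjusted p = 4.9e-06) and Cox8b at 13.8, 7.01, 6.95 and 7.47 CPM against 3.68, 1.59, 1.99 and 2.15 CPM (1.90, adjusted p = 0.000157). Ndufa4l2 went the other way, at 1.10, 1.14, 0.596 and 1.52 CPM against 6.94, 6.16, 5.78 and 6.96 CPM (-2.57, SE 0.26, adjusted p = 3.27e-06). The groups were apart for all 4. The mouse with raised muscle genes, listed first, had the highest astrocyte value of Cox7a1, Cox6b2 and Cox8b, and the gap held in the other 3 mice.

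The second line gave the same signs in adult mice. In mGfap mice at P63, 39 members were higher in the pull-down and 8 lower (32.6% and 35.2% of 17136 genes), and with library totals 11 and 33. Sdhc stood at 408, 399, 380, 415 and 366 CPM against 153, 125, 135, 139 and 115 CPM (log2 ratio 1.56, edgeR adjusted p = 4.84e-11), Cox7a1 had a ratio of 2.43 (adjusted p = 5.81e-12), Cox8b 2.15 and Ndufa4l2 -3.43 (adjusted p = 6.65e-06). At 14 days after injury only 6 members were higher and 3 lower in this line (23.3% and 23.6%), 11 and 6 with the mouse as a block and 6 and 13 without RiboTag replicate 1. Both libraries of that mouse had raised muscle genes, at 140 CPM in the pull-down and 2391 CPM in the flow-through, and without its Flow library 8 were higher and 3 lower.

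In mGfap-line cells at 14 days after injury, 5 members rose and 19 fell against P63 (27.7% and 16.4% of 17848 genes), with a median log2 fold change of -0.21 against 0.17 over all genes. That count rests on 1 library. RiboTag replicate 1 had a mean member log2 CPM of 7.25 against 6.25 to 6.43 in the other 4, and without it 4 rose and 51 fell. The oligodendrocyte markers summed to between 26223 and 43778 CPM at 14 days against 9106 to 14021 CPM at P63, with 10 of 10 higher, and the microglia and macrophage markers to between 235 and 1683 CPM against 17.8 to 32.0 CPM. Their part in the result was not tested, and the 14 day mice were all female while the P63 mice were of both sexes. With sex in the model 1 rose and 13 fell.

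The named genes of this line moved as follows. Sdha was at 382, 365, 262, 255 and 312 CPM at 14 days against 601, 622, 627, 634 and 609 CPM at P63 (log2 fold change -0.97, edgeR adjusted p = 1.86e-07), and Ndufs1 at 98.2, 80.6, 59.2, 62.7 and 76.0 CPM against 130, 141, 149, 146 and 144 CPM (-0.92, adjusted p = 8.02e-07). Ndufa8 was at 20.6, 18.6, 17.4, 18.2 and 19.7 CPM against 37.0, 36.7, 37.3, 38.5 and 38.5 CPM (-0.99, adjusted p = 2.97e-08). All 5 injured mice lay below all P63 mice for these 3. Cox6b2 was at 35.2, 17.3, 23.03, 27.2 and 24.4 CPM against 8.05, 8.08, 8.06, 7.76 and 7.50 CPM (1.69, adjusted p = 3.03e-08), higher in every injured mouse.

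The 14 day change of the mGfap line was tested against that of the Aldh1l1 line, and 2 members differed, both with the mGfap change higher, while 0 were lower (7.71% and 4.94% of all genes). Ndufv3, an accessory subunit near the NADH site of complex I, differed by 0.62 ± 0.12 (SE, edgeR adjusted p = 0.00137), and Ndufb2, an accessory subunit of the membrane arm, by 0.50 ± 0.11 (adjusted p = 0.00333). Ndufb2 went from 52.0, 55.5, 50.3 and 53.1 CPM to 33.2, 32.7, 36.8 and 38.0 CPM in Aldh1l1 mice, and was at 34.3, 36.4, 39.4, 42.7 and 42.8 CPM and 35.2, 37.5, 35.7, 35.8 and 40.6 CPM in mGfap mice at P63 and 14 days. The count was 0 without Aldh1l1 uninjured replicate 3 or 4 or 14 day replicate 3, 1 without 14 day replicate 2, and 0 with sex in the model. The mGfap 14 day RiboTag library of replicate 1, which stood apart above, was part of this fit. The line is confounded with age and handling, which cannot be told apart from it.

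During postnatal growth the members rose nearly as a whole in mGfap-line cells. Between P0 and P63, 80 of 82 rose and 0 fell (25.1% and 25.1% of 18041 genes), with a median log2 fold change of 1.41 against -0.01 over all genes and 0.56 for short genes outside the list. With library totals, where the all-gene median was -0.50, 73 rose and the members' median was 0.92. All complexes took part, with medians of 1.39 for complex I, 1.31 for II, 1.46 for III, 1.51 for IV and 1.33 for V. The 2 that did not pass were the isoform genes Cox4i2 (0.45) and Ndufa4l2 (-1.31).

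The rise was uneven, and the mean over the members was highest at P14. From P0 to P7, 71 rose and 0 fell (12.5% and 7.54% of all genes), with a median of 0.83, and 53 with library totals. From P7 to P21, 8 rose and 0 fell (8.01% and 7.33%), a count that was 2 without P7 replicate 1 and 5 without P21 replicate 1, and from P21 to P63, 41 rose and 0 fell (3.80% and 5.42%). The last count was 13 with library totals, 10, 12 and 15 without P21 replicates 2, 3 and 4, and 17, 23, 21 and 15 without P63 replicates 1, 2, 3 and 4. The members' median log2 fold change was 0.40 from P21 to P63, against 0.34 for short genes outside the list. Of 1174 such short genes, 78 rose and 7 fell in that step. Their medians were 0.40 from P0 to P7 and -0.11 from P7 to P21, where that of the members was 0.20. The part of length was not tested. These comparisons share age groups. The mean member log2 CPM was 5.36 ± 0.18 (SD, n = 4) at P0, 6.22 at P7, 7.13 ± 0.12 (n = 5) at P14 with a range of 7.03 to 7.29, 6.48 at P21 with a range of 6.41 to 6.62, and 6.86 ± 0.08 (n = 5) at P63, so every P14 library stood above every P21 library and, with a highest P63 library of 6.98, above every P63 library. P14 was not tested against the other ages.

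Individual members differed in when they rose. Sdha increased at each sampled age, from 266, 265, 239 and 280 CPM at P0 to a mean of 334 CPM at P7, 421 CPM at P14, 487 CPM at P21 and 588 CPM at P35, and to 673, 684, 691, 700 and 667 CPM at P63 (log2 fold change from P0 1.38, edgeR adjusted p = 2.75e-14). Sdhc instead stood highest at P14, at 111, 118, 113 and 128 CPM at P0, 444, 405, 471, 405 and 381 CPM at P14, 296, 262, 264 and 270 CPM at P21 and 395, 385, 366, 402.9 and 351 CPM at P63 (1.69, adjusted p = 3.35e-15). Cox8a had the same shape, with 74.7, 79.5, 95.3 and 101 CPM at P0, 479, 412, 503, 407 and 393 CPM at P14, 288, 230, 234 and 251 CPM at P21 and 376, 331, 358, 396 and 326 CPM at P63 (2.03, adjusted p = 9.44e-15). In both, all P14 libraries lay above all P21 libraries.

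Atp5b was already high at birth. It went from 785, 841, 816 and 821 CPM to 1216, 1346, 1321, 1298 and 1344 CPM at P63 (log2 fold change 0.68, edgeR adjusted p = 1.19e-07), a smaller change than that of Ndufb10, from 52.1, 63.8, 71.3 and 68.4 CPM to 267, 242, 252, 280 and 220 CPM (1.98, adjusted p = 4.88e-14). Neither overlapped between P0 and P63. Ndufs5, with 99% of its exon bases copied elsewhere, went from 4.84, 17.0, 26.8 and 21.03 CPM to 106, 81.2, 86.2, 91.4 and 67.2 CPM.

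The muscle-type isoforms were nearly absent at birth and present in the adult. Cox7a1 went from 0.0315, 0.612, 0.0447 and 0.849 CPM at P0 to 1.98, 1.79 and 2.30 CPM at P7, 11.53, 12.0, 11.9, 10.6 and 8.87 CPM at P14 and 18.8, 18.7, 19.9, 19.9 and 20.8 CPM at P63 (log2 fold change 5.65, SE 0.57, edgeR adjusted p = 3.66e-09). Cox8b went from 0, 0.224, 0.0224 and 0 CPM to 6.55, 7.70, 6.27 and 3.66 CPM at P21 and 5.30, 3.502, 3.73, 4.16 and 5.41 CPM at P63 (6.21, SE 0.72, adjusted p = 2.29e-08). Both were apart from P0 in every adult library, none of which had the raised muscle genes. Cox6a2 had 0 counts in all P0 libraries and 134 counts at P63, at 0.134, 0.264, 0.419, 0.471 and 0.518 CPM, and was at least 39.6-fold higher against a floor of 3 counts over the P0 group. Cox6b2 rose late, from 4.09, 4.02, 4.24 and 4.18 CPM at P21 to 9.02, 8.89, 8.88, 8.56 and 8.22 CPM at P63 (1.08, adjusted p = 0.00271).

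**Figure D5:**
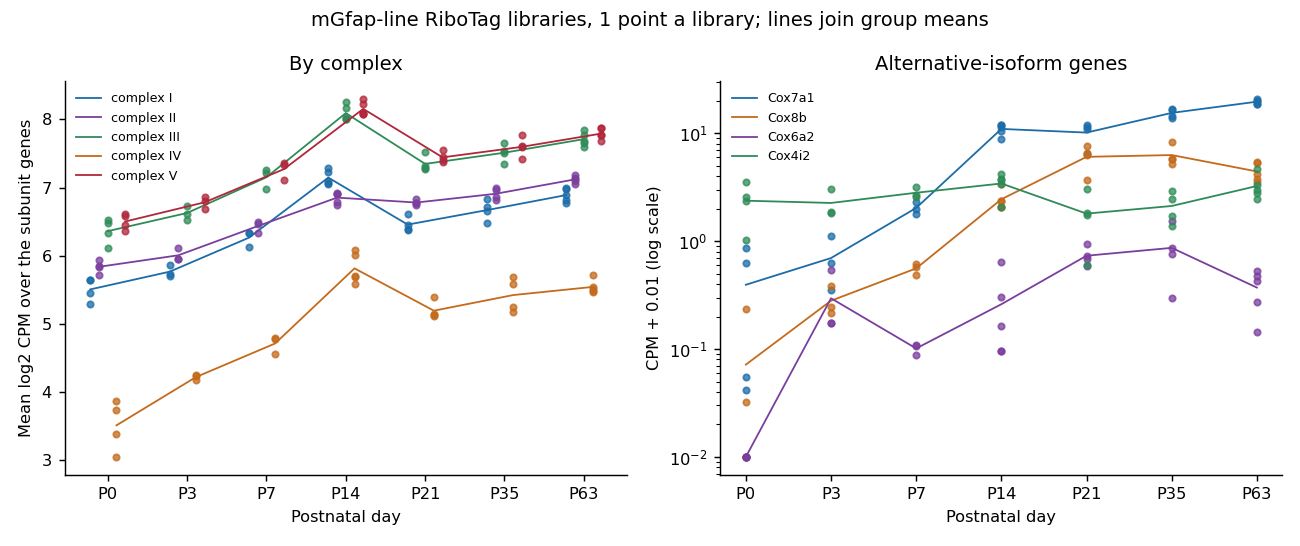
Mean log2 CPM of the members of each complex (left, y) and CPM plus 0.01 on a log axis of 4 alternative-isoform genes (right, y) in each mGfap-line RiboTag library by postnatal day (x), with lines through group means. All complexes stand higher at P63 than at P0, and the mean of complexes I, III, IV and V is highest at P14, at 7.14, 8.09, 5.81 and 8.15 against 6.89, 7.71, 5.54 and 7.79 at P63, while complex II is highest at P63. In the right panel Cox7a1 and Cox8b climb from near 0 while Cox4i2 stays level.

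Other mitochondrial genes over the same ages gave these counts. All 13 citric acid cycle enzymes rose from P0 to P63 with a median of 0.79, 58 of 78 mitochondrial ribosomal protein genes rose and 0 fell, and 33 of 44 assembly factors rose and 1 fell. Of the 13 subunits encoded in mitochondrial DNA 0 passed edgeR's quasi-likelihood test (median -0.37), 1 had an unadjusted p under 0.05, and DESeq2 called 0. Of the 14 biogenesis regulators 3 rose and 7 fell, with Ppargc1a at a log2 fold change of 0.69, Esrra, a nuclear receptor that works with it, at 2.00, and Gabpa, the ETS factor named above, at -0.59. Of 89 cytosolic ribosomal protein genes 5 were higher and 25 lower, and the others did not pass.

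Markers changed with age as well. The astrocyte markers summed to between 7955 and 20972 CPM at P0 and 45157 and 52601 CPM at P63, with 9 of 12 higher and 1 lower. The oligodendrocyte markers summed to between 5042 and 11630 CPM and 9106 and 14021 CPM, and the endothelial and mural markers to between 101 and 174 CPM and 25.8 and 34.7 CPM. Their part in the members' rise was not tested.

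Males and females of the Aldh1l1 line were compared at 5 and 14 days together, with time in the model. No member differed by edgeR's quasi-likelihood test, where 0.0227% of 17639 genes were higher in males and 0.0283% lower. The median log2 difference over the members was 0.03, DESeq2 called 0 members, and 1 member had an unadjusted p under 0.05, which was Ndufab1, the acyl carrier protein of complex I, at -0.26 (SE 0.11, unadjusted p = 0.0275 by the edgeR test over 8 mice of each sex).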

How the data were processed

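Poly-A selected RNA from RiboTag pull-downs and their flow-through was sequenced from mouse spinal cord. Upstream, the authors used Trimmomatic for trimming, HISAT2 for alignment to mm10 and featureCounts for counting, and the deposited values are whole-number raw counts per Entrez gene in 1 file per library, with 40710428 to 136008399 counts a library. The strand setting is not given in the sources used here.

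Groups followed the labels and replicates are separate mice. Identifiers were named through RefSeq (25275 of 27179 matched). Counts were fitted with edgeR 4.0.16 in R 4.3.3 (TMM scaling, filterByExpr, glmQLFit and glmQLFTest, after the authors' own use of edgeR), with Benjamini-Hochberg adjustment over all genes tested and a call at an adjusted p under 0.01. Fits used all female Aldh1l1 RiboTag groups, all female Aldh1l1 Flow groups, both together for differences between fractions, each pair of fractions, both lines at 14 days with their uninjured groups, all ages, and both sexes at 5 and 14 days. CPM are TMM-scaled within the fit they stand beside, which is why a library has slightly different values in different comparisons, and log2 CPM used a prior count of 2. Standard errors are of the log2 fold change.

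RiboTag and Flow libraries with the same number are pairs by their labels in both lines. In the 29 female Aldh1l1 mice, where this was checked, the correlation of the deviations of their fractions from the group means ran from -0.0265 to 0.308 with a median of 0.0892, against -0.0171 for different mice, and fits with the mouse as a block were made. Alternatives were relative log expression scaling, library totals, no low-count filter, DESeq2 1.42.0, a false discovery rate of 0.05, the 2 groups alone, blocks, sex as a covariate, subsets of members and each library left out. The restriction to members with under 20% of copied exon bases was chosen after seeing the data. Scripts were tested on simulated data.

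The members and all gene lists were chosen with earlier results of these data known. Genes are named where they were among the 2 highest per length in their complex, in complex II, among the isoform genes, or among the 3 largest calls in each direction without overlap in a comparison, and others, among them Ndufs5, Ndufa1 at 70 days and the transcription factors, after their values were seen.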

Additional observations from a re-analysis of the deposited data

Results flagged for a closer look

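Groups of 4 or 5 libraries were searched for a library far from the others in alternative isoform genes and in the mean over the members. This made 139 searches, each of 1 gene or mean in 1 group (Dixon's criterion at 95%). Chance marks about 1 in 20 such searches, and 15 outlying values were flagged. The mGfap 14 day RiboTag library of replicate 1 stood apart most often. Its mean member log2 CPM was 7.25 against 6.25 to 6.43 in the other 4 libraries, Cox4i2 was at 10.7 CPM against 4.16 to 5.70, Cox6a2 at 3.68 CPM against 0.262 to 1.03, Cox7a1 at 41.1 CPM against 14.3 to 21.3, Cox8b at 5.26 CPM against 0.694 to 1.08 and Ndufa4l2 at 3.14 CPM against 0.653 to 1.31. Its sum of 7 muscle genes was 140 CPM against 5.31 to 6.76, and the part of muscle RNA in the other values was not tested.

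In uninjured Aldh1l1 mice, replicate 1 stood apart for Cox6a2 at 1.23 CPM against 0 to 0.190 and for Cox8b at 11.9 CPM against 6.11 to 6.59 in the RiboTag libraries, and for Cox6a2 at 2.34 CPM against 0.980 to 1.12 in the Flow libraries. At 28 days the Flow libraries held 1 low value of Cox6a2, 16.9 CPM in replicate 3 against 23.3 to 24.4, and 1 high value of Cox7a1, 11.4 CPM in replicate 4 against 9.31 to 9.49. With age, single libraries stood apart for Cox8b at 0.224 CPM in P0 replicate 2, Cox6b2 at 3.73 CPM in P14 replicate 5 against 5.21 to 5.67, Cox8b at 3.40 CPM in P14 replicate 1 against 2.05 to 2.35, and Cox7a1 at 6.41 CPM in P21 replicate 4 against 10.9 to 11.8.

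The change after injury differed between astrocytes and flow-through, by the edgeR test of the difference itself, for 53 members at 2 days, 7 at 5 days, 5 at 14 days, 18 at 28 days, 15 at 42 days and 3 at 70 days. The 14 day change differed between the 2 lines for 2 members.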

How the results depend on the processing

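Over the counts of members called, 234 values under other settings stayed in direction and within 1.5 times the reported count, 22 moved and 14 reversed. For named genes 1293 values kept direction and call, 64 lost the call and 3 reversed. The reversed ones were Sdhb at -0.1406 (uninjured) and -0.04677 (mGfap P63) and Sdhd at -0.005293 (uninjured) between the fractions, all with library totals. The causes were not tested.

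Counts below are in the direction with more members in the report, unless both directions are given. With library totals 6 members were higher and 33 lower in astrocytes than in flow-through uninjured, 13 and 43 at 5 days and 13 and 44 at 14 days. The same counts were 17 and 4 at 42 days, 5 and 7 at 70 days, 11 and 33 at mGfap P63 and 3 and 4 at mGfap 14 days. The differences of change gave 4 higher and 2 lower at 70 days, and flow-through at 28 days gave 13 and 28. The lines gave 4, P21 against P7 gave 3 and P63 against P21 gave 13. At a false discovery rate of 0.05 the differences of change numbered 9, 28, 22 and 3 at 5, 28, 42 and 70 days, the lines 4 and P21 against P7 15. DESeq2 gave 9 at 5 and 2 at 70 days, relative log expression scaling 2 at 70 days and 1 for the lines, no filter 1 at 70 days, and sex as a covariate 0 for the lines. Flow-through at 5 days alone with uninjured gave 34. Members under 20% copied, chosen after seeing the data, gave 1 at 14 and at 70 days, and members up to 1000 bases 11, 10 and 1 lower in astrocytes at 28, 42 and 70 days.

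With the mouse as a replicate block, the differences of change numbered 10, 33, 20 and 2 at 5, 28, 42 and 70 days. Between the fractions, 28 members at 5 days and 11 at mGfap 14 days were higher in the pull-down. Between time points the replicate numbers are only names (5 of 84 pairs correlated above 0.1), and that block moved no count of members by over 1.5 times.

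Leaving out 1 library gave 51 to 60, 38 to 46, 50 to 64, 30 to 44, 30 to 40 and 12 to 18 lower members in astrocytes at the 6 times. In flow-through it gave 29 to 34, 14 to 26 and 26 to 35 lower members at 2, 5 and 14 days. At 28 days it gave 13 to 23 higher members, and at 42 and 70 days 34 to 51 and 13 to 23 lower ones. The differences of change gave 31 to 38, 3 to 5, 3 to 4, 11 to 21, 7 to 15 and 1 to 2. Between the fractions, in the direction with more members, the counts were 27 to 32 uninjured, then 34 to 37, 22 to 25, 19 to 26, 38 to 43, 28 to 34 and 21 to 28. They were 36 to 43 at mGfap P63 and 4 to 8 at mGfap 14 days. The mGfap injury count was 16 to 51, the lines 0 to 3, P63 against P0 80 to 80, P7 against P0 64 to 74, P21 against P7 2 to 11, P63 against P21 10 to 47 and the sexes 0 to 0. For counts, 736 such values stayed, 24 moved and 4 reversed. For named genes 5031 kept the call and 134 lost it.

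Depth limits Cox6a2, Cox8b, Cox4i2, Ndufa4l2 and Sdhd, all under 10 CPM in most groups.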
